A study of Mus musculus with 6 samples.

Results

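The genes described here are 10 transcription factor genes of blood stem and progenitor cells that lie outside the Gata2 heptad, the group of factors that bind together with Gata2 in stem cells. They are Zbtb16, Mecom, Hlf, Gfi1b, Myb, Etv6, Hhex, Zfpm1, Mef2c and Sox4. They were chosen by name, and each symbol matched a single row of the deposited table of 49585 genes. All 10 passed the filter on low counts, as did 13744 genes of the table. RNA came from mouse bone marrow leukaemia cells that the labels call MA9, the usual short form for leukaemia driven by the MLL-AF9 fusion. Of the 6 libraries, 3 were from cells with loxP-flanked Gata2 alleles (Gata2 f/f) and 3 from cells labelled Gata2 KO (genotype Gata2 -/-), whose column names read Cre in place of f-f. Cre and the Gata2 deletion therefore go together by label, and their effects cannot be told apart. All 6 cultures had received 5 uM Nutlin, which frees p53 from MDM2, for 18 h, and grew with mouse stem cell factor and interleukins, so every comparison is between Nutlin-treated cells. The libraries of each genotype are numbered 1 to 3. The design text calls them independent, but separate leukaemias and repeat cultures cannot be distinguished from it, so a p-value here reflects only how far these samples spread, which may be technical.

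Stem and progenitor cells hold a network of transcription factors that keeps them from differentiating, and its members are shut off at different steps as cells mature into granulocytes and monocytes. Some of the 10, such as Hlf, Mecom and Zbtb16, are known for their place near the top of the hierarchy, in stem cells. Others, such as Myb, Mef2c, Hhex and Etv6, stay active in cycling progenitors and in acute myeloid leukaemias. Gfi1b and Zfpm1 are best known in erythroid cells and megakaryocytes, where Zfpm1 protein (FOG-1) binds GATA factors.

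The libraries need a word before the members. Total counts ran from 17138687 to 26440960. Gata2 itself, the targeted gene, was at 33.6, 22.3 and 18.4 CPM (counts scaled to the TMM-adjusted library size) in Gata2 f/f 1, 2 and 3. Gata2 KO 1 and 3 held 5.44 and 4.33 CPM, but the library labelled Gata2 KO 2 held 43.3 CPM, which goes against its label. Every direction between the genotypes below includes that library unless stated. Both libraries numbered 3 stood apart in monocyte and macrophage markers: these 12 genes summed to 2065 and 2735 CPM in them, against 272 to 745 CPM in the other 4. The 11 neutrophil markers summed to 2086 and 3915 CPM in f/f 3 and KO 3, but Gata2 KO 1 was close to f/f 3, at 1894 CPM. In f/f 1, f/f 2 and the library labelled KO 2 they summed to 296 to 629 CPM. The 7 leukaemia identity markers, Ptprc and Hoxa9 among them, summed to 818 to 1051 CPM in f/f and to 790 to 1697 CPM in KO. A similar sum does not mean similar single genes. Kit was at 1.34 CPM in KO 3 and at 28.5 to 88.7 CPM in the other libraries. Cd34 was at 4.68 and 6.68 CPM in KO 1 and KO 3, against 33.6 to 39.2 CPM elsewhere. Mpo was at 952 CPM in KO 1 and at 446 CPM or less elsewhere. Meis1 was steadier, at 42.9 to 74.4 CPM over all libraries.

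The upstream sequences of the members whose levels varied most, or whose genotypes did not overlap, are shown first, since Gata2 binds the GATA motif and the genotype at issue is that of Gata2. RefSeq promoter windows (GRCm38.p6) existed for 9 of the 10 genes, in 12 windows, and the 250 bases before each start were searched on both strands for AGATAA or its variant AGATAG, and for TGATAA or its variant TGATAG. Zbtb16 had no window. Capitals mark a match, and each sequence is written 5′ to 3′ on the gene's strand. Mecom has 2 RefSeq windows, taken here as the upstream start of the longer MDS1-EVI1 form and the downstream start from which EVI1 is made. They lie at chr3:30509760-30510009 and chr3:30013205-30013454, both on the minus strand. GENCODE gives Mecom 17 transcripts and begins the gene further upstream, at chr3:30548008, so other annotated starts were not searched. The Hlf window is chr11:90390918-90391167 (minus strand), that of Gfi1b is chr2:28621983-28622232 (minus strand), and the first of 3 Mef2c windows is chr13:83503784-83504033 (plus strand).
Mecom, upstream start: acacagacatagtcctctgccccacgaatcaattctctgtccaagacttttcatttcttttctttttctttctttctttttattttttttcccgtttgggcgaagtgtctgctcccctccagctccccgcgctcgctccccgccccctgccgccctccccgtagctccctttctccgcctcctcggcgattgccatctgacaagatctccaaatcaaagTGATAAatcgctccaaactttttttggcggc
Mecom, downstream start: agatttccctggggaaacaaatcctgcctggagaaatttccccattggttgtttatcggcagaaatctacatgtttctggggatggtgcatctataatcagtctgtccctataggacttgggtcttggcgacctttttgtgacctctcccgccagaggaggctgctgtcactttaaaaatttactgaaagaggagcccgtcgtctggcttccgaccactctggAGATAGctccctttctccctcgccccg
Hlf: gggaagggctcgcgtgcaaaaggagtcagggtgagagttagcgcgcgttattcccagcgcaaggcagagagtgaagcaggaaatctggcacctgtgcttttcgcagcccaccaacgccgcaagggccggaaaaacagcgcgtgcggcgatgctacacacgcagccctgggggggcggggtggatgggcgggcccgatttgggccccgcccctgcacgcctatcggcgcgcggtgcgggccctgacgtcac
Gfi1b: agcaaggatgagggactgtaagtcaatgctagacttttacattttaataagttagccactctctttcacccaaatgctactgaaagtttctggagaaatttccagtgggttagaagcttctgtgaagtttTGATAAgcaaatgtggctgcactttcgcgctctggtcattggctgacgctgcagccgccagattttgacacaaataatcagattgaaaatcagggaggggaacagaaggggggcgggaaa
Mef2c, first start: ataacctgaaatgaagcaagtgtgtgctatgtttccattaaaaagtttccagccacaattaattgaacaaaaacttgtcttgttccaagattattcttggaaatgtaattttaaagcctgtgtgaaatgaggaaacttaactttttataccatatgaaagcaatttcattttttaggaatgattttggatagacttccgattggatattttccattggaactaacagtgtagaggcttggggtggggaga
Both Mecom windows held a match, TGATAA 31 bases and AGATAG 27 bases before the start, counted from the first base of the match. Gfi1b held TGATAA 120 bases before its start. The other 9 windows, those of Hlf, Mef2c, Myb, Etv6, Hhex, Zfpm1 and Sox4, held none. Matches were thus in 3 of 12 windows, and 26.5% of all 32851 windows in the table hold at least 1. These are matches of letters in short windows and not measured binding. The first Mef2c window was poor in G and C (33.6%, against a median of 52.4% over all windows). It held the TATA box sequence (TATAAA, searched on both strands) on the opposite strand, 107 bases before the start. The second Mef2c window also held it on the opposite strand, 22 bases before its start. Of all windows, 12.4% hold at least 1 such match. The upstream windows of Myb (81.2%), Hhex (76.0%) and Zfpm1 (73.2%) were rich in G and C.

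Levels per length of transcript set the 10 genes in an order. In Gata2 f/f, CPM per kilobase of merged GENCODE exons was 26.4 ± 5.95 for Etv6, 24.0 ± 8.75 for Myb, 14.0 ± 0.766 for Mef2c and 11.0 ± 0.648 for Hhex (SD, n = 3). It was 4.99 ± 0.864 for Sox4, 2.38 ± 0.864 for Zfpm1 and 1.65 ± 0.680 for Mecom. Zbtb16 (1.15 ± 0.965), Gfi1b (0.531 ± 0.410) and Hlf (0.304 ± 0.265) were lowest. Ranges over the f/f libraries overlapped between Etv6 and Myb, narrowly between Myb and Mef2c, and between neighbours from Zfpm1 down to Hlf. Even so, Myb lay above Mef2c, Zfpm1 above Mecom, and Mecom above Zbtb16 in every f/f library. The remaining overlapping orders lie within the spread. Mef2c lay above Hhex, Hhex above Sox4, and Sox4 above Zfpm1 without any overlap of their f/f ranges. The merged exons include those of isoforms that may not be used here, most of all in Mef2c (15715 bases), which lowers its value per length.

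**Figure D1:**
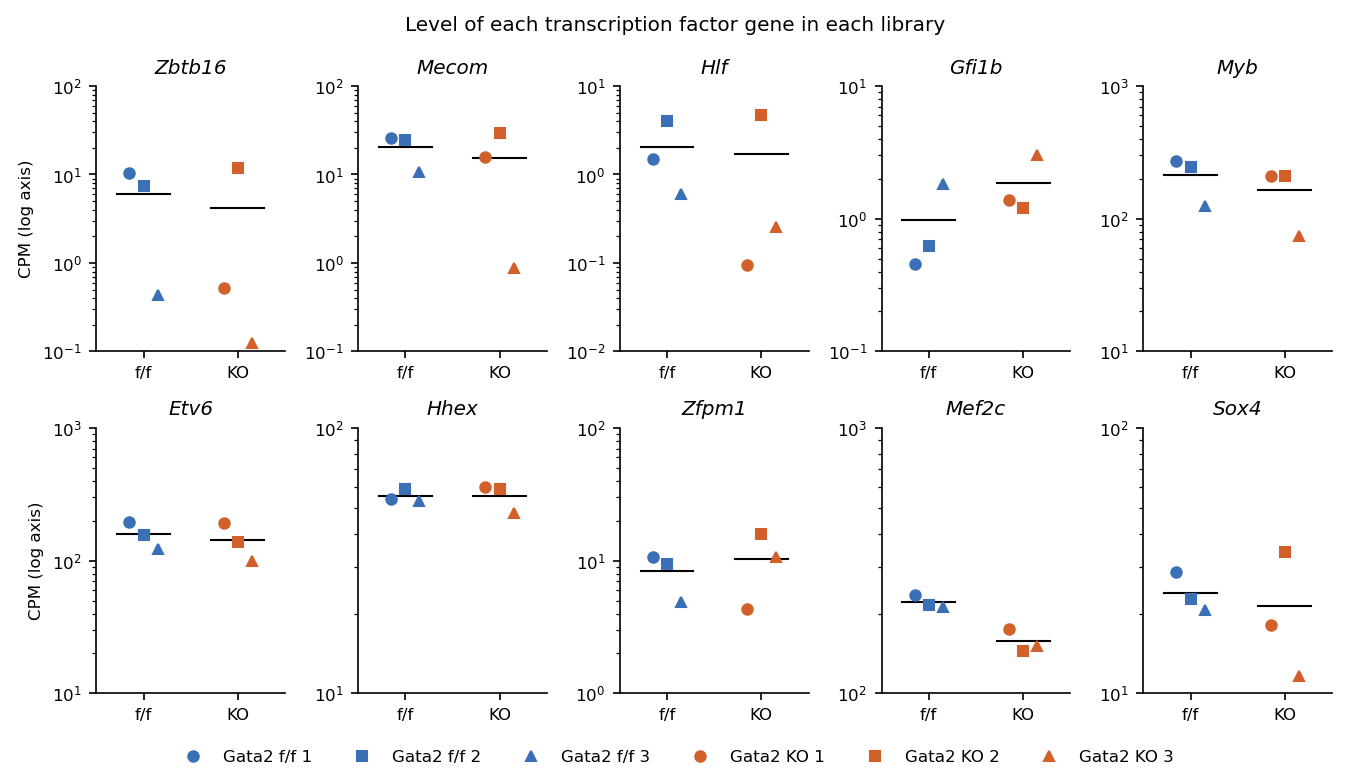
Level of each of the 10 genes in each library, as TMM-scaled CPM on a log axis whose range differs between panels; points are libraries, shaped by library number and coloured by genotype, and lines are means of 3. Mef2c is the only gene of the 10 with all KO points below all f/f points, while Zbtb16, Mecom and Hlf spread widest.

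No member was called between the genotypes. In edgeR's quasi-likelihood test none of the 10 passed an adjusted p of 0.05, and neither did any gene of the 13744 tested (0% called). At an unadjusted p under 0.05 the test held 1 of the 10 genes, Mef2c, against 1.24% of all tested genes. DESeq2 called 7 genes in all (0.0513% of those tested) and none of the 10. Of the 10 log2 fold changes, 7 were negative, with a median of -0.22, while 47.5% of all tested genes were negative, with a median of 0.02. Without the library labelled Gata2 KO 2 the median was -0.52, against 0.03 over all tested genes. That library held the highest Zbtb16, Hlf, Mecom, Sox4 and Zfpm1 of all 6, so more negative values of these genes follow from leaving it out. In these bulk samples fewer cells of a type and less RNA per cell cannot be told apart.

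Mef2c, a MADS-box factor known as a target of MLL fusions and as a regulator of lymphoid and myeloid fate, showed the steadiest difference between the genotypes. Gata2 f/f 1, 2 and 3 held 234, 215 and 212 CPM, whereas Gata2 KO 1, the library labelled KO 2 and KO 3 held 175, 145 and 151 CPM. All 3 KO libraries lay below all 3 f/f libraries, the only such case among the 10 in that direction, and 2.78% of all tested genes were laid out that way. No member was laid out the other way, as 2.64% of tested genes were. The log2 fold change was -0.49 ± 0.20 (SE; edgeR, unadjusted p = 0.0433, adjusted p = 1.00 over all genes). The library of doubtful label was the lowest of all, so here it stood with the other KO libraries. Within numbers 1, 2 and 3 the KO to f/f ratio was 0.746, 0.672 and 0.713. Leaving out each library in turn kept the log2 fold change between -0.60 and -0.44. It was -0.44 ± 0.26 without the library labelled KO 2 (edgeR, unadjusted p = 0.130) and -0.53 ± 0.20 without both libraries numbered 3. With a single library left out, the unadjusted edgeR p stayed under 0.05 only without KO 1 (0.0367) or KO 3 (0.0492). Without an f/f library it was 0.0616 to 0.107. No alternative called Mef2c (smallest adjusted p = 0.221, DESeq2 with the library number as a block). The gene spans chr13:83504034-83667080 on the plus strand. Markers of B cells, another cell type that uses Mef2c, summed to 4.78 to 6.56 CPM in f/f and 1.86 to 5.80 CPM in KO over 8 genes. Of these 8, only 1 passed the filter on low counts, and only 1 was at 0 counts in every library. The related genes Mef2a (log2 fold change -0.05 ± 0.39) and Mef2d (0.00 ± 0.33) were expressed without a call, and Mef2b was at 0 counts in all 6 libraries.

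Zbtb16, Hlf and Mecom, the factors best known from stem cells, varied most between libraries, and along lines that cross the genotypes. Zbtb16 encodes PLZF, a zinc-finger repressor that works through histone deacetylase complexes. Gata2 f/f 1, 2 and 3 held 10.4, 7.36 and 0.438 CPM, whereas the KO libraries, in the same order, held 0.525, 11.9 and 0.126 CPM. Thus f/f 1, f/f 2 and the library labelled KO 2 were high and the other 3 were low, 94.3-fold from the lowest to the highest. The counts behind the low values were 11 in f/f 3, 11 in KO 1 and 3 in KO 3. Hlf, a basic leucine zipper factor largely limited to stem cells within blood, followed the same layout at lower levels. The f/f libraries held 1.48, 4.01 and 0.597 CPM and the KO libraries 0.0955, 4.72 and 0.252 CPM, from 2 counts in KO 1 and 6 in KO 3. Mecom encodes EVI1, a zinc-finger factor that stem cells need and that is high in a share of MLL-rearranged leukaemias. Its f/f values were 26.1, 24.6 and 10.8 CPM and its KO values 15.8, 29.3 and 0.882 CPM. KO 3 alone was near the floor, with 21 counts against 270 to 552 in the other 5 libraries. The counts are per gene, so they do not divide Mecom between its starts.

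The log2 fold changes of these 3 genes were -0.54 ± 1.55 for Zbtb16, -0.28 ± 1.32 for Hlf and -0.42 ± 0.97 for Mecom (SE; edgeR, adjusted p = 1.00 each), far inside their errors. Each depended on single libraries. Without Gata2 KO 3 the values were 0.03, 0.22 and 0.12. Without KO 1 that of Hlf was 0.26, without f/f 2 it was 0.70, and without f/f 1 that of Zbtb16 was 0.06. Without the library labelled KO 2 they were -4.22 ± 1.44 for Zbtb16, -3.50 ± 1.06 for Hlf and -1.30 ± 1.06 for Mecom (edgeR, adjusted p = 0.915 each). Without both libraries numbered 3 they were -0.54 ± 1.08, -0.24 ± 1.27 and -0.20 ± 0.32. Without the library labelled KO 2 and with the number as a block, Zbtb16 was called (-3.51 ± 0.70, edgeR, adjusted p = 0.0183), among 54 of 14287 genes (0.378%), while Hlf (-2.40, adjusted p = 0.331) and Mecom (-2.02, adjusted p = 0.639) were not. The omitted library was chosen by its Gata2 level, and it also held the highest Zbtb16, Hlf and Mecom of all 6, so more negative values follow from leaving it out. With the block, that fit rests on the pairs numbered 1 and 3 and keeps 1 residual degree of freedom.

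Within library numbers, the ratios of these genes turned at number 2. The KO to f/f ratio of Zbtb16 was 0.0506 in number 1 (95% interval 0.0248 to 0.0927), 1.62 in number 2 and 0.288 in number 3 (0.0515 to 1.09). That of Hlf was 0.0644 (0.00741 to 0.257), 1.18 and 0.422 (0.134 to 1.15), and that of Mecom 0.605, 1.19 and 0.0820 (0.050 to 0.128). These intervals are exact and cover counting error only. In number 1 the ratios of Zbtb16 and Hlf were far below that of Mecom. In number 3 the intervals of Zbtb16 and Mecom overlapped.

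**Figure D2:**
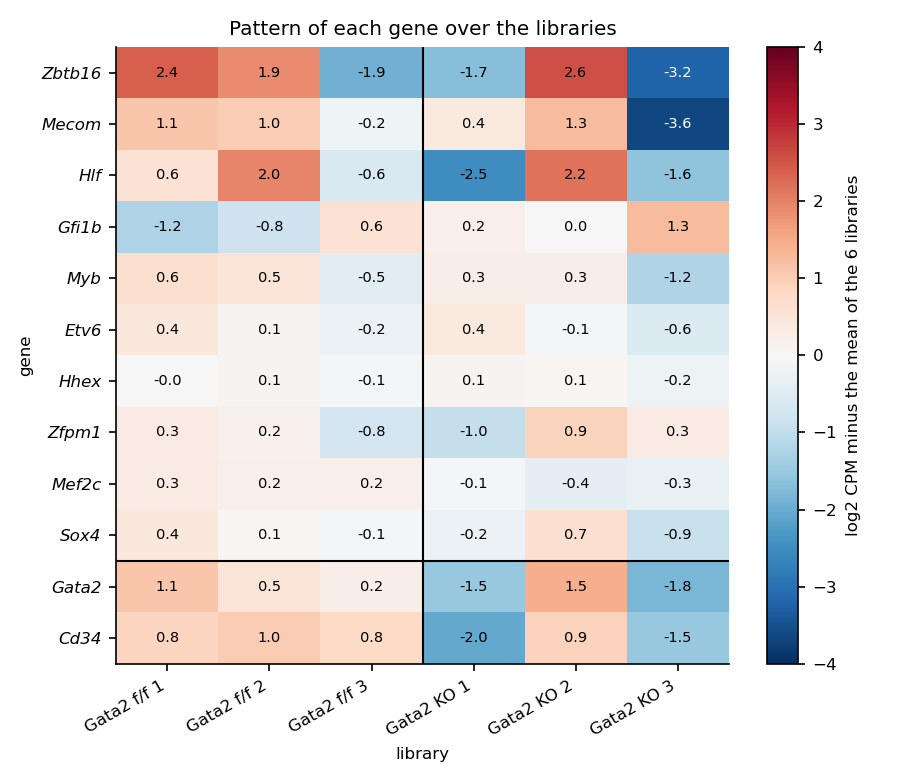
Log2 CPM (prior count 2) of each gene minus its mean over the 6 libraries, with Gata2 and Cd34 below the line; red is above and blue below the gene's mean, and columns are libraries. Zbtb16, Hlf and Mecom are red in f/f 1, f/f 2 and the library labelled KO 2. Mecom is also red in KO 1 (0.39) and is far lowest in KO 3 (-3.64). Gata2 and Cd34 are blue in KO 1 and KO 3 only.

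Sox4, a high-mobility-group factor of early lymphoid and leukaemia cells, had a milder version of this layout. Its f/f values were 28.6, 22.7 and 20.6 CPM and its KO values, in order of number, 18.1, 34.2 and 11.6 CPM. The library labelled KO 2 was the highest and KO 3 the lowest, and the groups overlapped (log2 fold change -0.17 ± 0.40). Without the library labelled KO 2, KO 1 and KO 3 lay below every f/f library (-0.69 ± 0.34; edgeR, adjusted p = 0.915), and without KO 3 the value was 0.11. In all, 4 of the 10 genes (Zbtb16, Hlf, Mecom and Sox4) had f/f 1, f/f 2 and the library labelled KO 2 above the other 3 libraries, as had 12.7% of all tested genes. This layout was chosen after the values were seen, so the count is a description. Gata2 and the progenitor surface marker Cd34 share the layout, but f/f 3, with Gata2 at 18.4 CPM and Cd34 at 33.6 CPM, lay closer to the other f/f libraries than to KO 1 and KO 3.

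The genes whose centred profile over the 6 libraries lay nearest were found for the 3 members of widest spread. Nearest to Zbtb16 were Slc22a3, Angpt1 and Frzb, at a root mean square difference of 0.638 to 0.641 log2 units. Angpt1, the ligand of the Tie2 receptor and a product of stem cells, had f/f values of 37.5, 33.6 and 2.91 CPM and KO values of 2.20, 21.1 and 0.294 CPM. Nearest to Hlf were Spns2 (0.426), Adgrg1 (0.446) and Rab38 (0.647). Adgrg1, an adhesion receptor also called GPR56, had f/f values of 66.6, 62.6 and 15.1 CPM and KO values of 4.97, 112 and 6.93 CPM. Nearest to Mecom were Xlr4c (0.129), Cbfa2t3 (0.314) and Cep85l (0.423). Cbfa2t3, an ETO-family corepressor, had f/f values of 69.2, 38.1 and 15.9 CPM and KO values of 28.1, 41.5 and 1.89 CPM. The candidates were the genes with a mean of at least 5 CPM (9465 for Zbtb16 and Mecom, 9466 for Hlf), and nearness over 6 libraries is a description.

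Myb, which drives proliferation of progenitors and is needed by MLL-AF9 leukaemia, followed the library number more than the genotype. Gata2 f/f 1, 2 and 3 held 271, 247 and 125 CPM, whereas the KO libraries, in the same order, held 209, 208 and 74.6 CPM. Both libraries numbered 3 were lowest, and in each number the KO library was below its f/f library, at ratios of 0.771, 0.844 and 0.595. The log2 fold change between the genotypes was -0.39 ± 0.46, and -0.46 ± 0.17 with the number as a block (edgeR, unadjusted p = 0.0311, adjusted p = 0.437). It was -0.60 ± 0.54 without the library labelled KO 2 and -0.34 ± 0.19 without both libraries numbered 3. Left out in turn, the libraries gave -0.70 (without f/f 3) to -0.06 (without KO 3). Between numbers, Myb was called (edgeR, genotype in the model, adjusted p = 0.0266), the pair numbered 3 lying at 125 and 74.6 CPM and the other 4 libraries at 208 CPM or more. That is 1 call among the 10 genes, where 9.09% of all tested genes were called, so the share is near the background. The monocyte and neutrophil marker sums given above were highest in the same libraries, with the neutrophil sum of KO 1 close behind. The part of these markers in the Myb result was not tested. Its relatives Mybl2 (91.0 to 193 CPM) and Mybl1 (1.18 to 3.92 CPM) had log2 fold changes of 0.17 ± 0.32 and -0.12 ± 0.49 between the genotypes. The antisense gene Gm26577 shares 559 exon bases with Myb and held 6 to 23 counts, against 1775 to 5535 of Myb.

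Etv6, an ETS-family repressor needed by adult stem cells, had the same order at a smaller scale. Its f/f values were 195, 157 and 123 CPM and its KO values 193, 138 and 99.2 CPM. Both libraries numbered 3 were again lowest, and the genotypes overlapped (log2 fold change -0.14 ± 0.31). Its test between numbers gave an adjusted p of 0.0797 in edgeR. Hhex, a homeobox repressor used by myeloid leukaemia and lymphoid progenitors, had the smallest spread of the 10. Its f/f values were 54.2, 59.1 and 52.9 CPM and its KO values 59.7, 58.7 and 48.0 CPM, 1.24-fold from the lowest to the highest. Its log2 fold change was 0.0023 ± 0.20, and its sign turned under most alternatives without leaving that error.

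With Zbtb16 and Mecom, 5 of the 10 genes (also Myb, Etv6 and Hhex) had both libraries numbered 3 below the other 4. So had 20.4% of tested genes, and Gfi1b had both above, as had 21.1%. For Zbtb16, f/f 3 lay below KO 1 through library size alone, at 11 counts each. For Hhex, f/f 3 at 52.9 CPM lay just below f/f 1 at 54.2 CPM (edgeR test between numbers, unadjusted p = 0.533). Zbtb16 (adjusted p = 0.0765), Hlf (0.0679), Gfi1b (0.109) and Mecom (0.150) missed the threshold between numbers in edgeR. DESeq2 called Zbtb16, Hlf and Etv6 as well as Myb, among 21.6% of all tested genes. In the 3 numbers alike the KO library was lower for Myb, Etv6 and Mef2c (17.7% of tested genes) and higher for Gfi1b (20.7%).

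**Figure D3:**
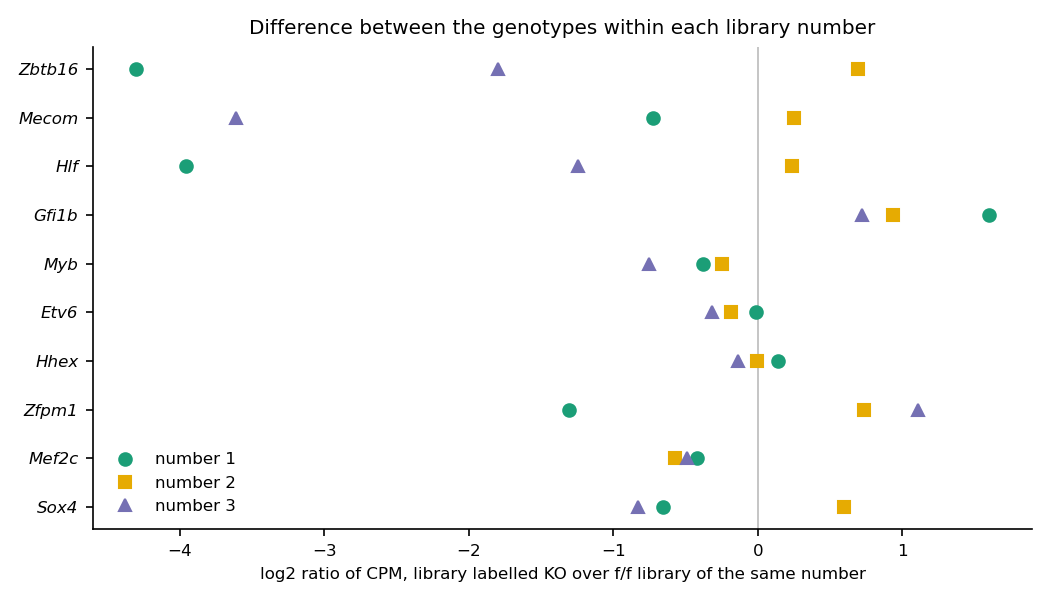
Log2 ratio of CPM of the library labelled KO over the f/f library of the same number, for each gene; a point is a single pair of libraries. The Mef2c points lie together below 0, and those of Zbtb16, Hlf, Mecom and Sox4 are above 0 for number 2 only.

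Gfi1b and Zfpm1, the members known from erythroid cells and megakaryocytes, had positive log2 fold changes. Gfi1b, a zinc-finger repressor that recruits the LSD1 demethylase, had f/f values of 0.456, 0.624 and 1.83 CPM and KO values of 1.39, 1.19 and 3.03 CPM. These rest on 8, 14 and 46 counts and on 29, 22 and 72 counts. The groups overlapped through f/f 3, while within numbers 1, 2 and 3 the KO to f/f ratio was 3.04 (95% interval 1.35 to 7.68), 1.91 (0.936 to 4.04) and 1.65 (1.12 to 2.44). The log2 fold change was 0.93 ± 0.66, and 1.04 ± 0.39 with the block (edgeR, unadjusted p = 0.0358, adjusted p = 0.443). With the block, 10.7% of all tested genes had an unadjusted p under 0.05. It was 1.16 ± 0.74 without the library labelled KO 2 and 1.20 ± 0.50 without both libraries numbered 3. Left out in turn, the libraries gave 0.37 (without KO 3) to 1.74 (without f/f 3). Its paralogue Gfi1, the form used by granulocyte precursors, was far higher, at 57.0 to 175 CPM, with a log2 fold change of 0.11 ± 0.45. The 10 megakaryocyte markers summed to 80.3 and 67.2 CPM in f/f 3 and KO 3, the libraries with most Gfi1b, against 17.7 to 41.0 CPM in the other 4. Of them Pf4 was at 7.41 and 5.04 CPM in those libraries and at 0.706 to 0.912 CPM in the others. Their part in the Gfi1b values was not tested.

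Zfpm1, the GATA cofactor, had f/f values of 10.6, 9.50 and 4.90 CPM and KO values of 4.30, 15.8 and 10.6 CPM. The library labelled KO 2 was highest and KO 1 lowest, and the groups overlapped. The log2 fold change was 0.30 ± 0.51, and -0.17 ± 0.54 with that library left out. The 11 erythroid markers, of which only 4 passed the filter, summed to 16.6 CPM in it, against 3.59 to 7.35 CPM in the other 5. Gata1, the GATA factor that Zfpm1 protein binds in erythroid cells, was at 4.51 CPM there and at 0.126 to 0.570 CPM elsewhere. That library also held most mast cell and basophil markers (17.0 CPM, against 5.64 to 14.1 CPM) and T and NK cell markers (8.96 CPM, against 4.73 to 7.14 CPM). In no other marker list was its sum the highest. The part of these markers in the Zfpm1 values was not tested.

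**Figure D4:**
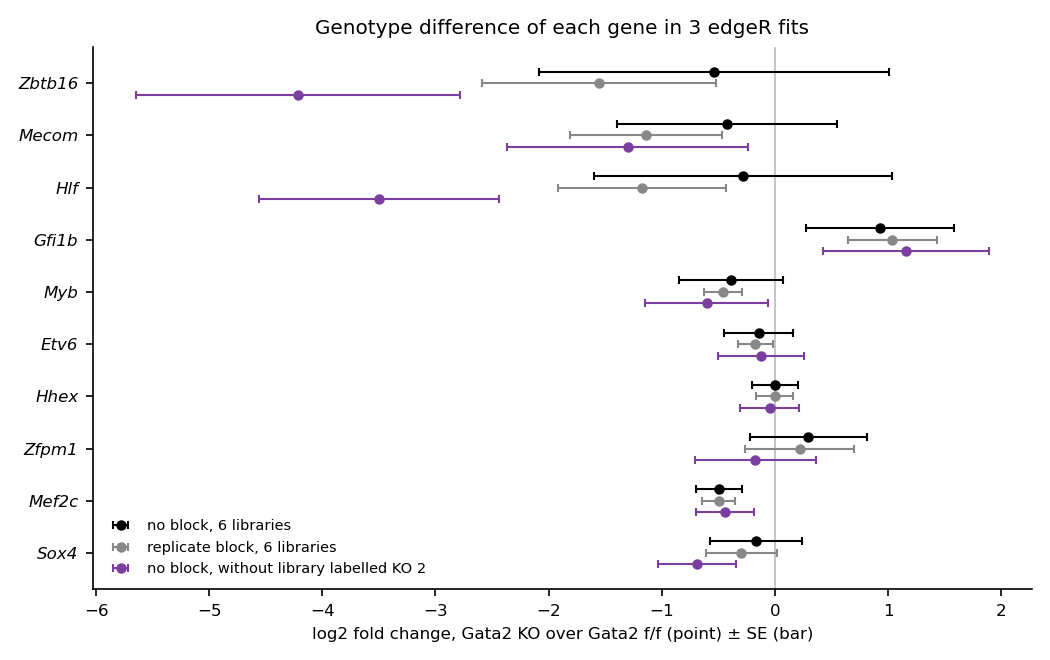
Log2 fold change (point) and standard error (bar) of each gene, Gata2 KO over Gata2 f/f, in 3 edgeR fits: 6 libraries without a block, 6 libraries with the number as a block, and without the library labelled KO 2. The Mef2c values lie close together, between -0.50 and -0.44, while those of Zbtb16 run from -0.54 to -4.22.

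Genes around the members had no call between the genotypes either in edgeR's fit of the 6 libraries. Of 17 family relatives 14 were tested and 8 were positive, with a median of 0.01. The smallest p-values were those of Nfil3, a bZIP repressor that competes with Hlf relatives for sites (0.82 ± 0.38), Zbtb7b (0.58 ± 0.33) and the ETS factor Fli1 (0.35 ± 0.28). Prdm16, the relative of Mecom, was at 0.630 CPM or less in every library and was not tested. Of 26 cofactors known to bind the members 25 were tested and 14 were negative (median -0.01). Hdac5 (0.39 ± 0.23), Hdac2 (-0.42 ± 0.31) and Hmg20b (0.34 ± 0.27) had the smallest p-values, and the LSD1 gene Kdm1a had -0.28 ± 0.32. Of 21 genes that the members are known to regulate, all were tested and 12 were positive (median 0.18). Bcl2, an anti-apoptotic gene that Myb activates, had -1.12 ± 0.48, Cd34 -1.16 ± 0.74 and Socs1, a brake on cytokine signalling, 0.79 ± 0.63. Over the 6 libraries edgeR called no gene of these lists between the genotypes, blocked or not. Between numbers it called 1 relative, 2 cofactors and 6 regulated genes, where 9.09% of all tested genes were called. In the blocked fit without the library labelled KO 2 it called 2 of the 21 regulated genes, Cd34 (-2.62, adjusted p = 0.00104) and Gata2 (-2.36, adjusted p = 0.00356), and that library was omitted for its Gata2 level. With the block, DESeq2 called 2 of the 21 regulated genes, Cd34 and Socs3, where 1.75% of tested genes were called.

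Over the 6 libraries edgeR called no heptad gene between the genotypes. Of the 7, all tested, 4 had positive values, with a median log2 fold change of 0.02, and -0.25 without the library labelled KO 2. Gata2 itself was called in the blocked fit without that library, as given above. The heptad held no gene whose genotypes did not overlap, and no gene called between numbers. The myeloid transcription factors, of which 15 of 16 were tested, had 14 positive values and a median of 0.36, with none called between the genotypes in edgeR. Between numbers 7 were called, where 9.09% of all tested genes were called. The differences between these lists were not tested.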

How the data were processed

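Poly(A) RNA of 6 cultures was sequenced, and the authors deposited whole-number counts per Ensembl gene, not normalised. Per the submitters' processing notes, the tools were kallisto, HTSeq and DESeq2 and the build was mm10, without roles or versions. Annotation and strand setting: not given in the sources used here. Thus reads of overlapping antisense genes cannot be separated. Of 49585 identifiers, 49326 matched GENCODE M21 (GRCm38, the assembly of mm10) without the version.

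edgeR 4.0.16 (R 4.3.3) filtered genes with filterByExpr (minimum count 10), scaled by TMM and fitted all 13744 genes by the robust quasi-likelihood test, with p-values adjusted by Benjamini-Hochberg (threshold 0.05). A fold change is log2 of KO over f/f, and its standard error comes from the F statistic. Differences between library numbers were tested with 2 degrees of freedom and genotype in the model. DESeq2 1.42.0 and limma 3.58.1 (voom) were alternatives, beside other scalings, other filters, the replicate block and left-out libraries. The tests were checked on simulated data.

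The members, lists, motifs and tests were chosen with earlier results of these data known. Genes named outside the members include the 3 of smallest p in each list and relatives set beside a member. Others are the 3 nearest profiles of the 3 members of widest spread. Kdm1a, Socs3, Prdm16, Gata1, Pf4, Ptprc, Hoxa9, Mpo, Kit and Meis1 were chosen after their values were seen. No pair of libraries was a duplicate (chi-square over degrees of freedom of 35.5 or more). The lowest value, 35.5, was that of f/f 1 with the library labelled KO 2. That library was at 71.6 with f/f 2 and 200 with f/f 3, and at 147 with KO 1 and 299 with KO 3. What these values mean for its label was not tested. Deviations from the group means correlated between equal numbers at 0.29, 0.55 and 0.65, all over 0.1, and the fits with a block take the numbers as pairs. The meaning of a number is not in the labels, and unlike numbers also reached 0.46 (f/f 1 with KO 2).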

Additional observations from a re-analysis of the deposited data

How the results depend on the processing

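Over the 6 libraries edgeR called 0 genes and 0 members between the genotypes, without and with the replicate block. The block did change calls elsewhere: DESeq2 called 7 genes, and 222 with the replicate block (42 lower and 180 higher in KO), none of them members. Without the library labelled Gata2 KO 2, edgeR called 0 genes, and 54 genes and 1 member, Zbtb16 (-3.51), with the replicate block. The count at an unadjusted p under 0.05 was 171 genes without the block. Other scalings, filters and voom called 0.

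Between numbers, edgeR called 1249 genes and 1 member; without a filter on low counts 2348 and 2 (Hlf, Myb), and with DESeq2 2850 and 4. With each library left out in turn it called 757 (without KO 3) to 3460 genes (without f/f 3) and 1 to 4 members, Myb each time.

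Of 120 values of single members under alternatives other than left-out libraries, 107 kept direction and call, 1 gained a call and 12 turned. For Hhex the turned values were -0.018 (DESeq2 size factors), -0.025 (upper quartile), -0.056 (no filter), -0.018 (DESeq2), -0.0038 (voom), -0.0030 (replicate block), -0.022 (DESeq2 with the block) and -0.0037 (block without the library labelled KO 2). For Zfpm1 they were -0.026 (without number 3), -0.066 (without number 2) and -0.088 (block without the library labelled KO 2), and for Sox4 0.0056 (without number 3). The cause was not tested. Over left-out libraries, 14 of 60 values turned; the ranges were -4.22 to 0.056 for Zbtb16, -1.30 to 0.12 for Mecom, -3.50 to 0.70 for Hlf, -0.44 to 0.037 for Etv6, -0.073 to 0.073 for Hhex, -0.17 to 0.64 for Zfpm1 and -0.69 to 0.11 for Sox4, while Myb (-0.70 to -0.063), Gfi1b and Mef2c kept their sign. Depth limits Hlf, Zbtb16 and Gfi1b, with 2 to 8 counts in their lowest libraries.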
